A study of Mus musculus with 26 samples.

Results

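The neuropeptide gene Gal and the genes of the 3 galanin receptors, Galr1, Galr2 and Galr3, were described across 26 mouse libraries. They were taken by symbol, 4 of the 23107 genes in the deposited table. All 26 libraries were sequenced after translating ribosome affinity purification, in which RNA bound to a tagged ribosomal protein is pulled down from a tissue lysate. The mice were the offspring of a GnRH CRE parent and a floxed-stop L10a-GFP parent, so Cre recombinase driven in gonadotropin-releasing hormone (GnRH) neurons switched on a green fluorescent ribosomal protein there, also in every control group. Punches of the preoptic area were pooled from 5 to 7 adult mice aged 55 to 165 days. Each pool gave an immunoprecipitate, enriched for RNA of GnRH neurons, and a supernatant, depleted of it. There were 8 groups: both RNAs from 3 pools of ovariectomized females, 3 of intact females (diestrus), 4 of intact males and 3 of orchidectomized males. Both operations are called gonadectomy here.

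Galanin is a peptide cut from the precursor that Gal encodes and is released by neurons that also use other transmitters. Galr1 and Galr3 encode receptors that couple to inhibitory G proteins, which lower cyclic AMP and open potassium channels, while the receptor of Galr2 couples mainly to Gq and phospholipase C. In rodents a share of GnRH neurons is known to make galanin, as do GABA neurons of the preoptic area, and galanin in GnRH neurons is known to depend on estrogen and to differ between the sexes.

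Gal lies on the minus strand of chromosome 19, at chr19:3409915-3414544 (mm10), and its annotated coding transcripts have 6 exons. Galr2 lies at chr11:116280939-116283938 and Galr3 at chr15:79041885-79043558, both on the plus strand with 2 exons. The 250 bases before the start of Gal, from RefSeq (GRCm38.p6), are shown because Gal was the most abundant member and its regulation by estrogen is the known background of the sex and gonadectomy comparisons. They span chr19:3414545-3414794 and are written 5′ to 3′ on the strand of the gene, with the letters GGTCA of an estrogen response half-site in capitals.
Gal: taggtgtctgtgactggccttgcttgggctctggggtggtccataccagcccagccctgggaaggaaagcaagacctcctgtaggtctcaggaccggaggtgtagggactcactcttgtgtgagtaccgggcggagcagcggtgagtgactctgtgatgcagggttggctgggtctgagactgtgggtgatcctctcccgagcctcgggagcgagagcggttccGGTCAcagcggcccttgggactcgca
The half-site, searched on both strands, begins 26 bases before the start, and 35.2% of 32851 RefSeq windows of that length hold at least 1. The whole element GGTCANNNTGACC, the cyclic AMP response element TGACGTCA, its half-site TGACG and the TATA box letters TATAAA were searched in the same way and are not in this window. They are in 0.0639%, 1.55%, 17.8% and 12.4% of all windows. GGTCA also lies inside the whole estrogen element, and TGACG inside the whole cyclic AMP element. A shorter Gal transcript starts 97 bases further into the gene. RefSeq windows matched 2 of the 4 members, Gal and Galr2, and none for Galr1 or Galr3.

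The labels number the libraries from 1 to 30 without saying what the numbers stand for. Numbers 1 to 10 hold 4 pools, 2 of intact females and 2 of intact males, and numbers 11 to 30 hold the other 9, among them every gonadectomized pool. Each intact pool had 6 or 7 mice in the first set and 5 in the second. Total counts ran from 27217253 to 56668582 per library, and levels are given as counts per 1000000 (CPM), scaled by the TMM factors of edgeR. Gnrh1, which encodes the GnRH precursor and defines the labelled cells, was higher in the immunoprecipitate in 13 of 13 pools. The ratio was lowest, 2.01, in an intact female pool numbered 11 to 30, whose supernatant stood at 1582 CPM against at most 454 CPM in the other supernatants. Gnrh1 averaged 18953 CPM in the immunoprecipitates numbered 1 to 10 and 5922 CPM in the later ones. The labels name separate biological replicates, and the p-values below measure the spread between pools.

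Gal was abundant in both RNAs, and its level separated the libraries by their numbers without overlap. In the supernatants of intact females Gal stood at 82.4, 111 and 46.8 CPM, and in those of intact males at 94.97, 94.6, 49.2 and 58.6 CPM. The first 2 values of each group are those of libraries 1 to 10. The supernatants of gonadectomized females held 58.8, 40.8 and 47.1 CPM, and those of gonadectomized males 53.3, 52.6 and 49.8 CPM. The high values were thus the 4 supernatants numbered 1 to 10, and the 3 later intact pools lay among the gonadectomized ones. Over all conditions the mean was 95.6 ± 11.6 CPM (SD, n = 4) in supernatants 1 to 10 and 50.8 ± 5.80 CPM (SD, n = 9) in the later ones. The 3 intact pools among the later ones averaged 51.5 ± 6.26 CPM (SD).

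The immunoprecipitates showed the same split with a wider gap. Intact females held 199.7, 185 and 60.9 CPM of Gal and intact males 130.01, 149, 57.3 and 60.8 CPM, again with libraries 1 to 10 first. Gonadectomized females held 51.6, 45.3 and 72.1 CPM, and gonadectomized males 47.1, 65.4 and 69.5 CPM. The 4 immunoprecipitates numbered 1 to 10, at 130.01 to 199.7 CPM, all stood above the 9 later ones, at 45.3 to 72.1 CPM. Their means were 166 ± 32.2 CPM (SD, n = 4) and 58.9 ± 9.45 CPM (SD, n = 9). The lowest count of Gal in any library was 1099, so counting error is small beside these gaps.

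**Figure D1:**
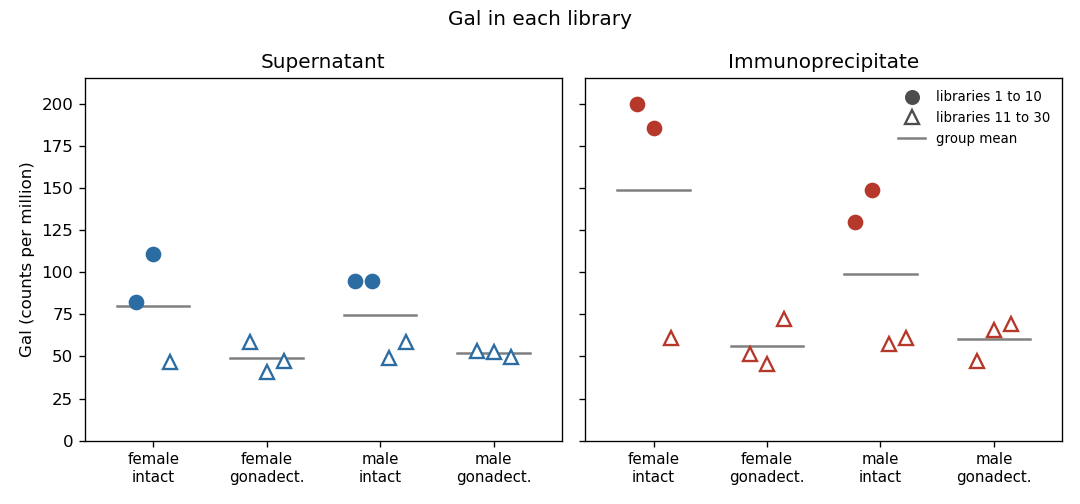
Gal in CPM (vertical axis) in each supernatant (left, blue) and immunoprecipitate (right, red) by sex and gonadal state; filled circles are libraries numbered 1 to 10, open triangles libraries 11 to 30, and bars group means. The 4 circles of each panel lie above all 9 triangles, from 82.4 CPM in the supernatants and from 130.01 CPM in the immunoprecipitates.

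A term for library numbers 11 to 30 against 1 to 10, fitted beside the 4 conditions, is estimated from the 7 intact pools. Gal was lower in the later supernatants by a log2 of -0.87 (SE 0.14, edgeR's quasi-likelihood test with Benjamini-Hochberg adjustment, adjusted p = 0.0026), a 1.83-fold difference. In the immunoprecipitates the log2 was -1.41 (SE 0.19, adjusted p = 0.00032 by edgeR), a 2.65-fold difference. Both calls held in each of the 7 fits that left out 1 intact library. Of the members, 2 of 4 were called in the supernatants, Gal and Galr1, against 11.1% of all genes tested, and 1 of 3 in the immunoprecipitates, against 16.1%. Genes whose libraries 1 to 10 all lay above the later ones made up 2.85% of those tested in the supernatants and 7.69% in the immunoprecipitates. The gap in the immunoprecipitates was not shown to be larger than that in the supernatants, since the difference of both was -0.50 in log2 (SE 0.24, adjusted p = 0.20 by edgeR, with 9.69% of genes called).

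Several other measures moved with the numbering, and their part in the Gal difference was not tested. The 5 markers of GnRH neurons summed to 17205 to 21329 CPM in immunoprecipitates 1 to 10 and to 3400 to 9149 CPM in the later ones. Nearly all of that sum was Gnrh1 (mean 18953 and then 5922 CPM). Smaller differences of the mean were seen for Isl1 (188 and 152 CPM), Kiss1r (47.7 and 33.0 CPM) and Npffr1 (18.9 and 12.6 CPM). In the supernatants the sums of the 5 markers overlapped, at 131 to 314 CPM and 132 to 1678 CPM, while Gal did not. The 6 peptide genes of neighbouring hypothalamic nuclei (Avp, Oxt, Pomc, Agrp, Hcrt and Pmch) summed to 248 to 711 CPM in immunoprecipitates 1 to 10 and to 140 to 242 CPM later. In the supernatants they summed to 275 to 637 CPM and 179 to 496 CPM. Of these 6, oxytocin (Oxt, -1.23), the melanocortin precursor Pomc (-1.73) and vasopressin (Avp, -1.39) were called lower in the later immunoprecipitates, and Oxt (-1.12) in the later supernatants. Of all genes tested, 16.1% were called by numbering in the immunoprecipitates and 11.1% in the supernatants. Other marker sums were higher in the later libraries. The 5 astrocyte markers summed to 213 to 277 CPM in immunoprecipitates 1 to 10 and to 319 to 1791 CPM later, and overlapped in the supernatants (407 to 473 CPM and 306 to 533 CPM). The 5 markers of neurons in general summed to 3448 to 3701 CPM in supernatants 1 to 10 and to 3997 to 4521 CPM later, and overlapped in the immunoprecipitates (3180 to 3585 CPM and 3036 to 4471 CPM). No gene of these marker lists was at 0 in all libraries. Pool size differed too, and its part was not tested. The 3 pools of gonadectomized females held 7 mice each, and their supernatants stood at 40.8 to 58.8 CPM of Gal. These pools were all numbered 11 to 30, so pool size, gonadal state and numbering cannot be told apart in them. In whole-tissue RNA, fewer cells of a type and less RNA per cell cannot be told apart.

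Gonadectomy gave no called change of Gal, and the differences between group means followed the numbering. In females the supernatant mean was 79.9 ± 32.0 CPM (SD, n = 3) in intact and 48.9 ± 9.16 CPM (SD, n = 3) in gonadectomized mice, a log2 of -0.67 (SE 0.28, adjusted p = 0.65 by edgeR). The immunoprecipitate means were 149 ± 76.4 and 56.3 ± 14.01 CPM (SD, n = 3 each), a log2 of -1.40 (SE 0.43, adjusted p = 0.99 by edgeR). In males the supernatants averaged 74.4 ± 23.9 CPM (SD, n = 4) and 51.9 ± 1.85 CPM (SD, n = 3), and the immunoprecipitates 99.2 ± 47.0 and 60.7 ± 11.9 CPM. The log2 differences in males were -0.52 (SE 0.26, adjusted p = 1.00 by edgeR) and -0.71 (SE 0.40, adjusted p = 0.57 by edgeR).

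With the numbering as a term, the 4 gonadectomy differences of Gal came to -0.01 and -0.29 in females and to -0.03 and 0.12 in males, supernatant first. In libraries 11 to 30 alone they were 0.06 and -0.11 in females and -0.04 and 0.04 in males, where 1 pool of intact females and 2 of intact males remain. The SEs of these differences ran up to 0.29, and a change well above 1 SE could still go uncalled. In female immunoprecipitates the difference without the numbering term, -1.40 (SE 0.43), was not called. None of the 4 gonadectomy comparisons called a member in edgeR, DESeq2 or limma voom. Gal passed an unadjusted p of 0.05 in 2 of them, both fractions of females. The share of all genes called was 0.0122% in female supernatants and 0.0% in the other 3 comparisons. The effect of gonadectomy did not differ detectably between the sexes for Gal, with a log2 difference of 0.16 (SE 0.38) in the supernatants and 0.69 (SE 0.58) in the immunoprecipitates (adjusted p = 1.00 by edgeR in both, 0.0% of genes called).

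**Figure D2:**
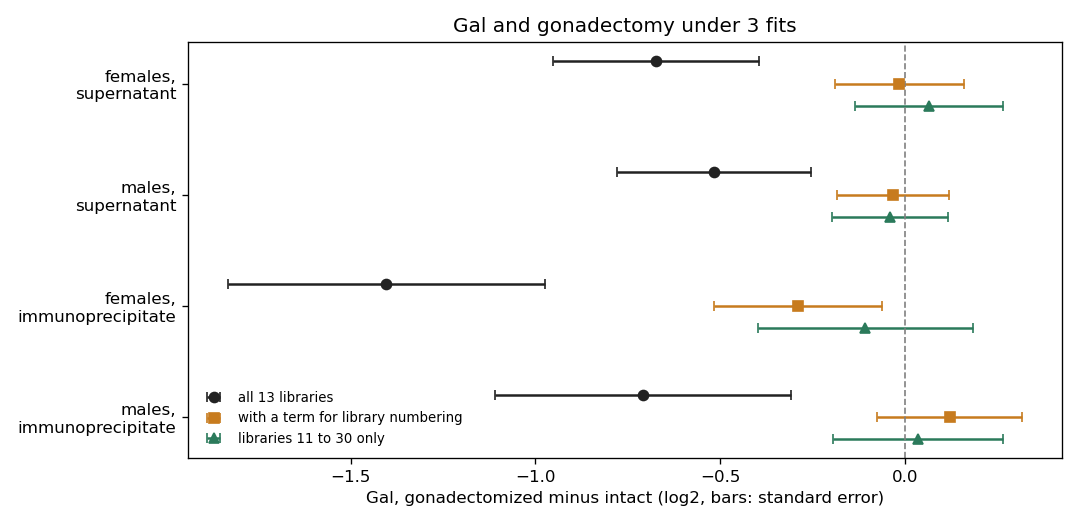
Log2 difference of Gal between gonadectomized and intact mice (horizontal axis, bars are standard errors) by sex and fraction, from all 13 libraries of a fraction (black circles), with a term for library numbering (orange squares) and from libraries 11 to 30 only (green triangles). The black values run from -1.40 to -0.52, and the green ones lie between -0.11 and 0.06.

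Sex gave no called difference of Gal. In intact mice the male minus female log2 was -0.09 (SE 0.26, adjusted p = 0.95 by edgeR) in the supernatants and -0.59 (SE 0.39, adjusted p = 0.99 by edgeR) in the immunoprecipitates. With an intact immunoprecipitate left out the latter ranged from -0.97, without female replicate 2, to -0.32, without female replicate 0, and was never called. In libraries 1 to 10 the 2 female immunoprecipitates, at 199.7 and 185 CPM, both stood above the 2 male ones, at 130.01 and 149 CPM. In the later intact pools the female immunoprecipitate, at 60.9 CPM, was barely above the higher of the male ones, at 57.3 and 60.8 CPM. In gonadectomized mice the log2 was 0.07 (SE 0.28, adjusted p = 0.91) in the supernatants and 0.11 (SE 0.42, adjusted p = 0.97) in the immunoprecipitates by edgeR. No member was called in the 4 comparisons of sex by edgeR, DESeq2 or limma voom, and none had an unadjusted p under 0.05 by edgeR. The share of genes called was 0.0428% in both supernatant comparisons, and 0.0248% in intact and 0.0186% in gonadectomized immunoprecipitates.

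Gal was moderately higher in the immunoprecipitate than in the supernatant of the same mice. The ratio was 2.42, 1.68 and 1.30 in intact females and 1.37, 1.57, 1.16 and 1.04 in intact males. It was 0.878, 1.11 and 1.53 in gonadectomized females and 0.884, 1.24 and 1.39 in gonadectomized males. The immunoprecipitate was thus higher in 11 of 13 pools, in all 4 numbered 1 to 10 and in 7 of the 9 later ones. Of all genes tested, 18.2% were higher in at least 11 pools. The Gnrh1 ratio ran from 2.01 to 313 with a median of 87.9, so the Gal ratio was far smaller.

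Over all conditions the log2 of immunoprecipitate over supernatant was 0.44 for Gal (SE 0.19, adjusted p = 0.065 by edgeR), and 0 of the 3 members tested were called, against 42.9% of all genes. With the pool of mice as a block the log2 was 0.39 (SE 0.09) and passed (adjusted p = 0.0036 by edgeR, with 46.2% of genes called). In libraries 1 to 10 the log2 was 0.83 (SE 0.11, adjusted p = 0.00083 by edgeR, with 37.3% of genes called), and in libraries 11 to 30 it was 0.24 (SE 0.12, adjusted p = 0.16 by edgeR, with 26.5% called). DESeq2 called Gal (0.46, adjusted p = 0.036, with 39.0% of genes called) and limma voom did not (0.40, adjusted p = 0.10, with 50.8% called). At an unadjusted p under 0.05, Gal was the 1 member that passed in edgeR. Leaving out 1 of 4 intact libraries brought the call over the threshold in edgeR: the female supernatant at 111 CPM (0.51, adjusted p = 0.036), the female immunoprecipitate at 60.9 CPM (0.56, adjusted p = 0.0085), or the male immunoprecipitates at 57.3 CPM (0.48, adjusted p = 0.035) or 60.8 CPM (0.48, adjusted p = 0.040).

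By condition, the largest value for Gal was in intact females, at a log2 of 0.90 (SE 0.39, adjusted p = 0.11 by edgeR), and it passed with the pool as a block (0.80, SE 0.19, adjusted p = 0.013 by edgeR, with 18.3% of genes called). Without the intact female immunoprecipitate numbered 11 to 30 the value was 1.34 (adjusted p = 0.0085 by edgeR). The log2 was 0.42 in intact males (SE 0.34, adjusted p = 0.40), 0.20 in gonadectomized females (SE 0.39, adjusted p = 0.86) and 0.23 in gonadectomized males (SE 0.39, adjusted p = 0.80) by edgeR. These enrichments were not shown to differ between conditions. The difference between gonadectomized and intact mice was -0.69 in females (SE 0.55, adjusted p = 0.85) and -0.19 in males (SE 0.51, adjusted p = 0.95) by edgeR. Male minus female was -0.48 in intact mice (SE 0.51, adjusted p = 1.00) and 0.02 in gonadectomized mice (SE 0.55, adjusted p = 1.00) by edgeR. No member was called in these 4 differences by edgeR, DESeq2 or limma voom, nor passed an unadjusted p of 0.05 in edgeR. The share of genes called was 0.00598% for intact males minus females and 0.0% in the other 3.

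**Figure D3:**
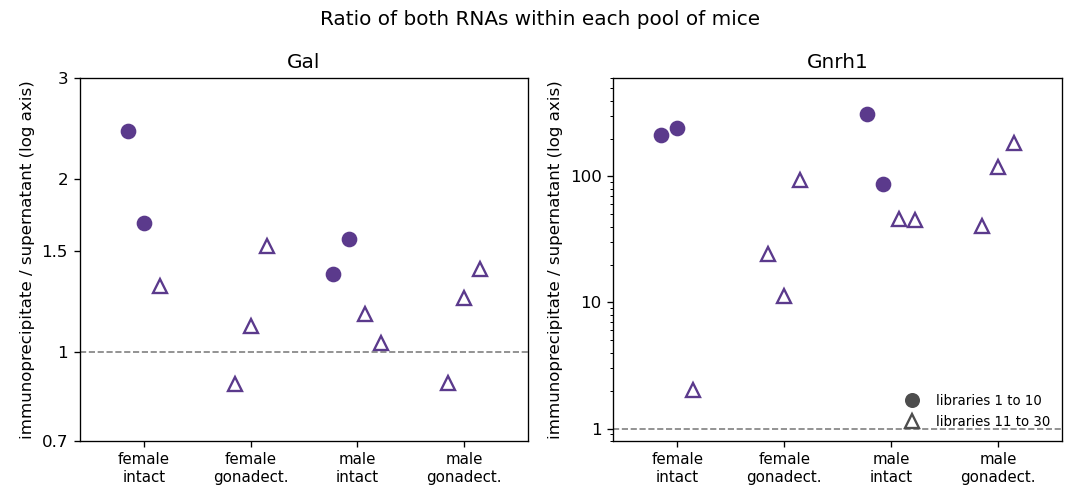
Immunoprecipitate level over supernatant level (log axis) within each of the 13 pools for Gal (left) and Gnrh1 (right); filled circles are pools numbered 1 to 10, open triangles pools 11 to 30, and the dashed line marks equal levels. Gal runs from 0.878 to 2.42 and Gnrh1 from 2.01 to 313.

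Galr1 was the receptor gene with the most counts, 1186 over the 13 supernatants and 695 over the 13 immunoprecipitates. It is a gene of 3 exons on the minus strand of chromosome 18. Its supernatant level divided by library number as that of Gal did. Intact females stood at 2.60, 2.87 and 1.65 CPM and intact males at 3.92, 2.84, 1.77 and 1.70 CPM, libraries 1 to 10 first. Gonadectomized females stood at 1.60, 1.37 and 1.87 CPM and gonadectomized males at 1.62, 2.102 and 1.97 CPM. The 4 supernatants numbered 1 to 10, from 2.60 CPM upward, did not overlap the 9 later ones, of which the highest held 2.102 CPM. Of all genes tested in the supernatants, 2.85% were divided in this way. The numbering term was -0.84 in log2 (SE 0.20, adjusted p = 0.017 by edgeR), a 1.79-fold difference. That call was lost without the first supernatant of intact males (adjusted p = 0.0675), and also without any 1 of the 3 later intact ones (adjusted p = 0.0916 without the female one, 0.0643 and 0.0560 without each male one, all by edgeR).

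In the immunoprecipitates Galr1 had no such order. Intact females held 1.54, 2.18 and 1.02 CPM, gonadectomized females 1.81, 1.20 and 1.16 CPM, and gonadectomized males 1.64, 3.32 and 0.484 CPM. Intact males held 0.0732, 0.713, 0.196 and 1.74 CPM, from 3, 27, 7 and 71 counts. Of these 4 intact male pools 3 therefore lay below all 6 female pools, and the remaining one lay among them. The numbering term in the immunoprecipitates was 0.51 (SE 1.15, adjusted p = 0.83 by edgeR). Gonadectomy differences of Galr1 in log2 were -0.51 (SE 0.32) in female and -0.42 (SE 0.29) in male supernatants, and -0.19 (SE 1.07) and 1.41 (SE 1.00) in the immunoprecipitates. Male minus female was 0.12 (SE 0.29) in intact and 0.21 (SE 0.32) in gonadectomized supernatants, and -1.22 (SE 0.99) and 0.38 (SE 1.07) in the immunoprecipitates. None of these 8 values passed (adjusted p from 0.65 to 1.00 by edgeR). The SEs in the immunoprecipitates were about 1 in log2, and changes larger than that could still go uncalled.

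Galr1 was lower in the immunoprecipitate in 9 of 13 pools, and 40.2% of all genes were lower in at least 9. Over all conditions its log2 was -0.69 (SE 0.36, adjusted p = 0.13 by edgeR). It passed in limma voom (-0.94, adjusted p = 0.025), and it passed in edgeR without the intact male immunoprecipitate that held 1.74 CPM (-0.95, adjusted p = 0.022). In intact males the log2 was -1.90 (SE 0.67, adjusted p = 0.038 by edgeR), a 3.74-fold difference and the 1 call among the 3 members tested, against 25.9% of all genes called there. That call rested on few pools. It was lost in libraries 11 to 30 (-0.84, adjusted p = 0.62), in libraries 1 to 10 (-3.04, adjusted p = 0.076) and in 5 of the 8 fits that left out 1 intact male library (adjusted p up to 0.11), all by edgeR. The 3 immunoprecipitates whose loss ended the call were those at 0.0732, 0.713 and 0.196 CPM, and the 2 supernatants were those at 3.92 and 2.84 CPM.

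In the other conditions the Galr1 log2 was -0.58 in intact females, -0.22 in gonadectomized females and -0.06 in gonadectomized males (SE 0.74 to 0.75, adjusted p of 0.64, 0.93 and 0.98 by edgeR). No member was called in these 3 conditions by edgeR, DESeq2 or limma voom, where 10.2% of genes were called higher and 7.77% lower in intact females, and 6.28% and 10.7% were called in gonadectomized females and males. Gal in intact females was the 1 member with an unadjusted p under 0.05 in edgeR. The Galr1 value of intact males was not shown to differ from that of gonadectomized males (1.84, SE 0.99, adjusted p = 0.63 by edgeR) or of intact females (-1.32, SE 0.99, adjusted p = 1.00 by edgeR).

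Galr2, the phospholipase-coupled receptor gene, was rare everywhere and nearly absent from the immunoprecipitates. Its supernatant counts were 19, 4 and 5 in intact females, 14, 2, 8 and 3 in intact males, 6, 5 and 1 in gonadectomized females and 2, 11 and 1 in gonadectomized males. The 13 immunoprecipitates held 10 counts in all, 8 of them in 1 intact male library, 1 in an intact female and 1 in a gonadectomized male library, and 10 libraries were at 0. Summed, this was 81 counts or 0.146 CPM in the supernatants (exact 95% Poisson interval 0.116 to 0.181) and 0.0196 CPM in the immunoprecipitates (0.0094 to 0.0360), intervals that cover counting error only.

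The immunoprecipitate was lower in 12 of 13 pools, and 14.8% of the genes tested were lower in at least 12. The mean difference in Galr2 was -0.135 CPM (SD 0.154, exact paired permutation test over 13 pools, two-sided, p = 0.0076). With each pool left out in turn it ranged from -0.158 CPM, without the intact male pool with 8 counts, to -0.110 CPM, without replicate 0 of the intact females, and the highest exact permutation p of these was 0.015. In gonadectomized females all 3 immunoprecipitates were at 0. The supernatant level of this group, 0.128 CPM from 12 counts, was 4.66-fold above a floor of 3 counts over the group. That ratio is not a lower bound. The exact Poisson interval of these supernatants began at 0.0659 CPM, and that of the immunoprecipitates reached up to 0.0336 CPM. Galr2 passed the filter on low counts in the supernatants only. Without that filter the comparison over all conditions called it (adjusted p = 0.0018 by edgeR, with 37.5% of genes called). In the supernatants Galr2 was called in none of its 6 comparisons of sex, gonadectomy and numbering (lowest adjusted p = 0.45 by edgeR, no unadjusted p under 0.05).

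Galr3 was low in both RNAs and its immunoprecipitate level was erratic. The supernatants ran from 0.365 to 0.992 CPM with a median of 0.671 CPM, and libraries 1 to 10 overlapped the later ones. Intact females held 0.186, 0.357 and 0.499 CPM in the immunoprecipitates and gonadectomized females 0.459, 0.273 and 0.940 CPM. Intact males held 0.0244, 1.37, 0.0280 and 0.978 CPM and gonadectomized males 0.0292, 0.767 and 0.134 CPM. In males the values thus fell far apart within a group, with about 1 count in each of 3 libraries. No comparison of the 22 made called Galr3 in edgeR (lowest adjusted p = 0.36, no unadjusted p under 0.05). Over all conditions its log2 was -0.61 (SE 0.51), and limma voom called it (-1.20, adjusted p = 0.049). With a library left out the edgeR value ranged from -1.08, without the gonadectomized male immunoprecipitate at 0.767 CPM, to -0.48, without the one at 0.0292 CPM, and was never called (adjusted p from 0.092 to 0.47). Galr3 shares 647 bases with the annotated locus of Gcat, an enzyme gene of threonine breakdown on the same strand. Its deposited count was not a whole number in 25 of 26 libraries, as for Gcat, while the other 3 members had whole counts throughout, so the level of Galr3 is uncertain.

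**Figure D4:**
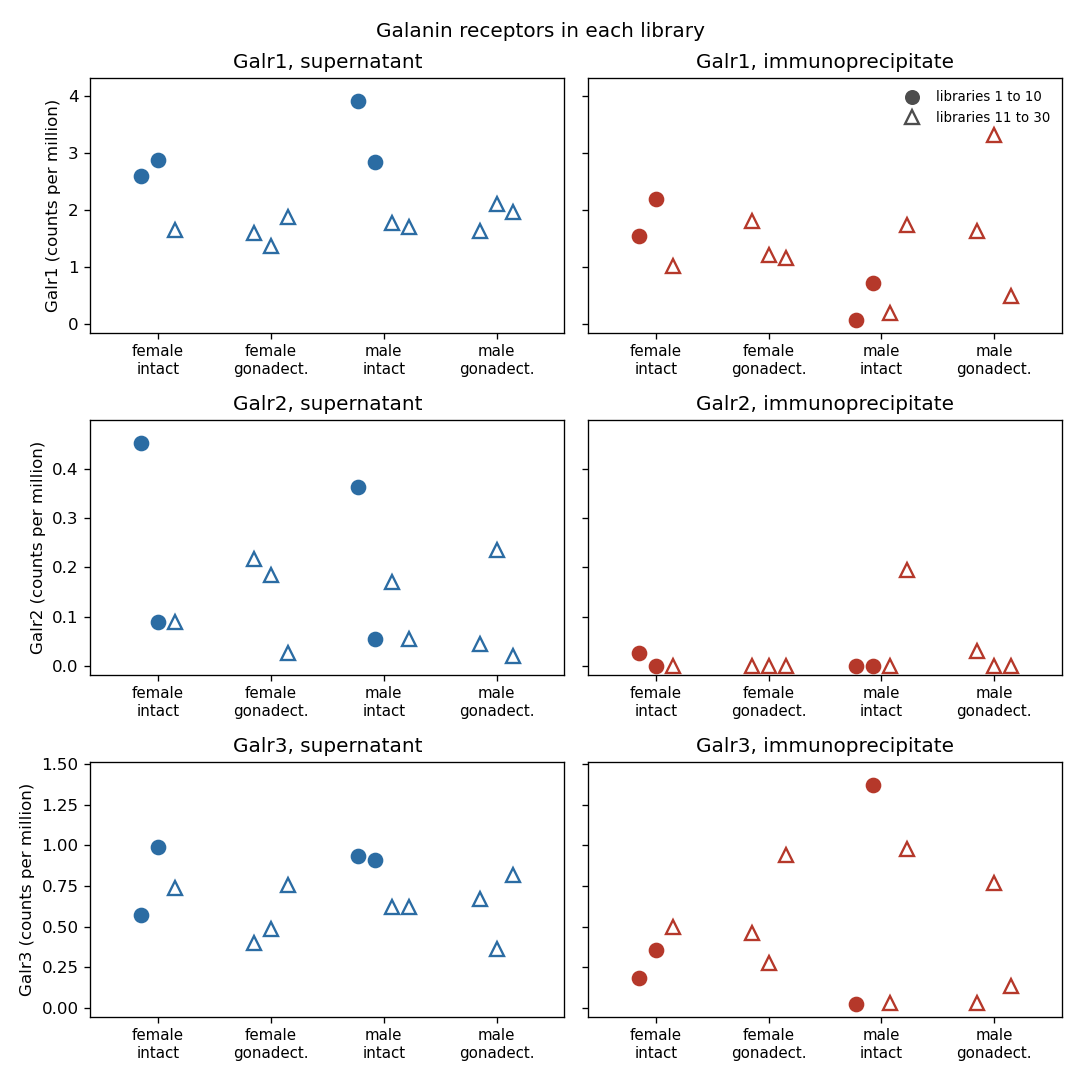
Galr1, Galr2 and Galr3 in CPM (vertical axes, a scale for each gene) in each supernatant (left, blue) and immunoprecipitate (right, red) by sex and gonadal state; filled circles are libraries 1 to 10 and open triangles libraries 11 to 30. Galr1 in the supernatants is at or above 2.60 CPM in the circles and at or below 2.102 CPM in the triangles, and Galr2 is at 0 in 10 of the 13 immunoprecipitates.

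Divided by the length of the longest annotated coding transcript (788 bases for Gal, 2987 for Galr1, 1940 for Galr2 and 1245 for Galr3), Gal exceeded every receptor gene in all 26 libraries. The supernatant level was 82.0 ± 28.95 CPM per kb for Gal, 0.718 ± 0.241 for Galr1, 0.549 ± 0.161 for Galr3 and 0.0794 ± 0.0698 for Galr2 (SD, n = 13). In the immunoprecipitates it was 117 ± 69.1, 0.440 ± 0.295, 0.374 ± 0.345 and 0.0100 ± 0.0278 CPM per kb in the same order of genes. Galr3 stood above Galr2 in 13 of 13 libraries of each fraction. Galr1 stood above Galr3 in 12 of 13 supernatants but in 9 of 13 immunoprecipitates, and the SDs of these neighbours overlapped in both fractions. Galp, a related ligand, had at most 3 counts in a library and was not tested.

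The genes that act before and after the receptors were taken as lists. Of 6 peptide processing genes, the convertase chaperone Scg5 (0.74, adjusted p = 0.0030) and the convertase inhibitor Pcsk1n (0.45, adjusted p = 0.017) were higher in the immunoprecipitates over all conditions, and the convertase Pcsk2 was lower (-0.30, adjusted p = 0.0100), by edgeR. Their median log2 was 0.05, beside -0.06 over all genes, of which 42.9% were called (3559 higher and 3608 lower of 16713). By numbering, 4 of the 6 were lower in the later supernatants: the amidating enzyme Pam (-0.89), Scg5 (-0.70), the carboxypeptidase Cpe (-0.62) and Pcsk2 (-0.43). In the later immunoprecipitates 3 of 6 were lower: Scg5 (-1.66), the convertase Pcsk1 (-1.26) and Pcsk1n (-1.18). Of all genes tested, 11.1% were called in the later supernatants (470 higher and 1351 lower of 16360) and 16.1% in the later immunoprecipitates (1053 higher and 1551 lower of 16160). The list medians were -0.60 and -0.88, beside 0.02 and 0.06 over all genes, and no processing gene was higher in the later libraries of either fraction.

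Of 17 genes of the inhibitory arm, 2 were higher and 7 lower in the immunoprecipitates over all conditions, with a median log2 of -0.17, beside 42.9% of all genes called and a median of -0.06. The higher ones were the adenylyl cyclases Adcy1 (0.85) and Adcy7 (0.66). Adcy1 averaged 35.4 CPM in immunoprecipitates and 34.3 CPM in supernatants 1 to 10, against 84.5 and 38.8 CPM later. Adcy7 averaged 27.8 and 15.8 CPM in libraries 1 to 10 and 15.8 and 10.5 CPM later. The lower ones included the G protein genes Gnao1 (-0.48) and Gnai1 (-0.40) and the potassium channel genes Kcnj3 (-0.73) and Kcnj6 (-0.60). Of 13 genes of the phospholipase arm none was higher and 6 were lower, with a median of -0.24, beside the same 42.9%, with 3608 of 16713 genes lower. They were led by the G protein gene Gnaq (-0.84) and included Gna11 (-0.41) and the phospholipase genes Plcb4 (-0.50) and Plcb1 (-0.45). By numbering, where 11.1% of all genes were called in the supernatants and 16.1% in the immunoprecipitates, in the later supernatants 1 of 17 inhibitory genes was higher and 5 lower, among them Adcy2 (-0.59) and Adcy6 (-0.68), while 3 of 13 phospholipase genes were higher and 0 lower. In the later immunoprecipitates 2 inhibitory genes were higher and 1 lower, and 5 phospholipase genes were higher and 0 lower, Plcb1 (1.03) and Plcb4 (1.03) among them.

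The estrogen receptor genes Esr1 (-1.31) and Esr2 (-1.01) were lower in the immunoprecipitates over all conditions. For Esr2 the difference lay mainly in libraries 1 to 10, at a mean of 0.147 CPM in immunoprecipitates and 1.80 CPM in supernatants. In the later libraries, which hold every gonadectomized pool, its means were 1.28 and 1.38 CPM. The mean of Esr1 was lower in the immunoprecipitates in both sets of libraries. Of 8 markers of preoptic galanin neurons, 3 were lower, the GABA transporter gene Slc32a1 (-1.66), Esr1 (-1.31) and the GABA enzyme gene Gad2 (-0.53), and none was higher, beside 42.9% of all genes called. These 8 summed to 745 to 892 CPM in immunoprecipitates 1 to 10 and to 896 to 1293 CPM in the later ones. Gad1 (mean 474 and then 620 CPM) and Gad2 (251 and 371 CPM) weighed most in that sum, and its members did not move together. Esr1 (5.04 and 7.39 CPM) and Brs3 (2.46 and 2.88 CPM) also had the higher mean later. Moxd1 (4.73 and 2.32 CPM) and Calcr (8.49 and 7.57 CPM) had the higher mean in immunoprecipitates 1 to 10. In the supernatants the sums overlapped, at 1025 to 1239 CPM and 947 to 1466 CPM. By numbering, beside 11.1% of all genes called in the supernatants and 16.1% in the immunoprecipitates, 1 of the 8 was lower in the later supernatants (Slc32a1, -0.69), and 2 were higher in the later immunoprecipitates (Gad2, 0.74, and Gad1, 0.48). Kiss1r, a receptor gene of the same family that marks GnRH neurons, was higher in the immunoprecipitates (1.77), and lower in the later of these than in numbers 1 to 10 (-0.80). No gene of any list was called in the 4 gonadectomy comparisons by edgeR, while 6 to 11 of 89 to 91 had an unadjusted p under 0.05. DESeq2 called 1, in male supernatants, and limma voom none.

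The genes whose log2 CPM was most like that of Gal were found by Pearson's r across the 13 libraries of a fraction, as a description. In the supernatants, among 10634 genes with a mean of at least 5 CPM, they were Adcy6 (r = 0.938), the neurokinin B gene Tac2 (0.922), the prolactin receptor gene Prlr (0.919), the complement-like gene C1ql2 (0.919) and the GABA receptor gene Gabrb1 (0.919). All 5 were higher in each of the libraries 1 to 10 than in any later one, with Tac2 at a mean of 20.7 against 11.7 CPM and Prlr at 28.5 against 16.5 CPM. In the immunoprecipitates, among 10667 genes, they were Gas5 (0.974), Mir682 (0.968), Ctxn2 (0.962), Chadl (0.961) and Snrpg (0.961), which were divided by number in the same way. Since these genes were chosen for likeness to Gal, itself divided by number, their division largely follows from the choice. Of all genes tested, 2.85% in the supernatants and 7.69% in the immunoprecipitates were divided in this way. Genes with r over 0.9 numbered 11 in the supernatants and 213 in the immunoprecipitates. The libraries share their numbering, and by Spearman's rho 1 of the 5 genes in each fraction was again among the first 5.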

How the data were processed

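The authors deposited estimated counts per gene for 26 libraries, 1 column each. The submitters' processing notes name build mm10, Cuffdiff 2.1.1, Cufflinks, Bowtie2 2.1.0, TopHat2 2.0.9 and FastQC, with no role or order. Annotation and handling of multiply mapped reads: not given in the sources used here. Of all deposited values 1.46% were not whole, and counts were rounded before testing. Reads carry no molecular identifiers, so counts cover counting error only. No replicates agreed within sampling noise (lowest chi-square per degree of freedom 4.51).

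R 4.3.3 and edgeR 4.0.16 served for the tests, with TMM scaling, filterByExpr (minimum count 10, minimum total 15), the two-sided quasi-likelihood test and Benjamini-Hochberg adjustment over all genes tested, called at an adjusted p under 0.05. Adjusted p-values given without a tool are of this test. Immunoprecipitate against supernatant used 26 libraries in 8 groups, and sex, gonadectomy and numbering used the 13 libraries of a fraction. The scripts were tested on simulated data. Alternatives were DESeq2 1.42.0, limma voom (3.58.1), DESeq2 size factors in edgeR, no filter, blocks, a numbering term, subsets of libraries and leaving out each library. Libraries 1 to 10 alone and the paired permutation test for Galr2 were added after seeing the data.

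The same pool gave both RNAs, so the pool pairs fractions by the labels. Deviations of both RNAs of a pool from their group means correlated at 0.0143 to 0.170. The labels give no meaning to replicate numbers shared between conditions. Same-numbered supernatants of intact females and males correlated at 0.297, 0.318 and 0.339, so these were taken as paired by the data, and their numbers follow the library numbering. Other same-numbered libraries did not all pass 0.1 within any pair of conditions. The block by number changed no call. Transcript lengths and positions are from GENCODE vM21, in place of the RefSeq lengths planned. Named genes are the 4 members, the 5 genes most like Gal in each fraction (tested genes, mean of at least 5 CPM, predicted genes left out) and genes of the lists. Of 100 list entries 98 matched, 2 through older symbols, and 1 list is not reported in full here. The members and lists were chosen with earlier results of these data known.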

Additional observations from a re-analysis of the deposited data

Results flagged for a closer look

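Galr2 in the immunoprecipitate of 1 intact male pool (replicate 3, numbered 11 to 30) stood at 0.196 CPM, or 8 counts, while the other 3 intact male immunoprecipitates were at 0. The value was flagged by Dixon's test, which was run on groups of 4, 8 in all. With the other 3 values at 0, the gap over the range is 1.0 for any count above 0. The flag therefore does not measure how unusual 8 counts are. The supernatant of the same pool held 3 counts of Galr2. That pool also had the highest Galr1 among the intact male immunoprecipitates, at 1.74 CPM.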

How the results depend on the processing

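Of 643 alternative values for 44 results, 580 kept their direction and their side of the threshold, and 20 results did so in every alternative run. Gal enrichment over all conditions came to pass in DESeq2 (0.46), with the replicate block of the pool of mice (0.39) and in libraries 1 to 10 (0.83), and ranged from 0.37 to 0.56 with a library left out. In intact females it passed with the replicate block (0.80) and in libraries 1 to 10 (1.05), ranging from 0.62 to 1.34 with a library left out, and in intact males in libraries 1 to 10 (0.62). The replicate block changed no other call. Galr1 enrichment passed over all conditions in limma voom (-0.94; range -0.95 to -0.58), and in intact males it no longer passed in libraries 11 to 30 (-0.84) or 1 to 10 (-3.04; range -2.95 to -1.53). Its numbering difference ranged from -0.93 to -0.70 in the supernatants. In the immunoprecipitates, where it did not pass, it was -0.0014 in limma voom and ranged from -0.90 to 1.32.

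None of the other results that turned direction passed the threshold. For Gal, with the numbering term, they were the sex difference of the gonadectomy effect in the supernatants (-0.018), gonadectomy in male immunoprecipitates (0.12) and sex in intact supernatants (0.085). In libraries 11 to 30 they were the same 3 (-0.10, 0.036 and 0.22), gonadectomy in female supernatants (0.065) and the enrichment of gonadectomized minus intact males (0.11). A block by replicate number gave 0.0092 for sex in intact supernatants. For Galr1, gonadectomy in supernatants turned with the numbering term (0.084 in females, 0.061 in males), and in libraries 11 to 30 in male supernatants (0.15) and female immunoprecipitates (0.44). With a library left out, Gal ranged from -0.013 to 0.36 for enrichment in gonadectomized females, from -0.13 to 0.24 and from -0.38 to 0.073 for its differences between gonadectomized sexes and between gonadectomized and intact males, from -0.13 to 0.43 for the sex difference of the gonadectomy effect in supernatants, from -0.027 to 0.32 and from -0.026 to 0.24 for sex in gonadectomized immunoprecipitates and supernatants, and from -0.37 to 0.22 for sex in intact supernatants. Galr1 ranged from -0.84 to 0.39 for enrichment in gonadectomized males, from -0.41 to 0.12 for gonadectomy in female immunoprecipitates and from -0.15 to 0.28 for sex in intact supernatants. The cause was not tested. Low counts limit Galr2 and Galr3, and the immunoprecipitates spread more (biological coefficient of variation 0.560) than the supernatants (0.181).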
